A study of Mus musculus with 44 samples.

Results

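The 10 lipogenesis genes described here are Fasn, Acaca, Scd1, Elovl6, Acly, Me1, Thrsp, Srebf1, Gpam and Pnpla3, which carry or control the making of fatty acids and their storage as triglyceride.
They were found as the probe sets annotated with exactly 1 of these symbols, 23 of the 34945 probe sets with a single symbol, and they make up 10 of the 18193 genes measured.
Each gene was followed by its probe set with the highest mean over the 44 arrays, and its other probe sets served as a check.

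The arrays are Affymetrix expression arrays of liver, spleen and bone marrow from B6C3F1 mice, a hybrid laboratory strain, that had received 2-butoxyethanol (2BE) or vehicle.
2BE is a glycol ether solvent whose acid metabolite breaks red blood cells in rodents.
Liver was taken at 4 h (4 arrays for 2BE and 3 for vehicle) and at 7 d (5 and 4).
Spleen was taken at 4 h (4 arrays for 2BE and 4 for vehicle) and at 7 d (5 and 5), and bone marrow of the humerus at 7 d (5 and 5). The sample titles give only these times, without saying whether 2BE was given in a single dose or repeatedly.
All groups share the strain and a ketamine and acepromazine anaesthesia at death, and neither dose and route nor the sex, age and feeding state of the mice are stated in those sources.
The sample titles call the arms 2BE and vehicle, whereas the treatment field calls the same arms reduced oxygen and control, and the arms were taken from the titles.
Replicates carry numbers that are not tied to named animals, so p-values measure the spread between these arrays.

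Lipogenesis turns citrate from the mitochondria into fatty acids in the cytosol.
Acly splits citrate to acetyl-CoA, Me1 supplies NADPH, Acaca makes malonyl-CoA, Fasn assembles palmitate, Elovl6 lengthens it, Scd1 adds a double bond, and Gpam attaches the first acyl chain to glycerol-3-phosphate.
In liver and fat these genes respond to feeding, insulin and sugar through the transcription factors SREBP-1c, a product of Srebf1, and ChREBP.
Thrsp encodes Spot 14, a small nuclear protein of liver and fat that is known for its response to thyroid hormone and carbohydrate.
Pnpla3 encodes an enzyme of the lipid droplet surface.

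In GRCm38.p6, Acly, Acaca, Fasn and Srebf1 lie on chromosome 11, Scd1 and Gpam on 19, Elovl6 on 3, Me1 on 9, Thrsp on 7 and Pnpla3 on 15. The 250 bases before the start site are shown for the genes with the highest fold changes in liver at 7 d, Thrsp, Elovl6 and Fasn, because these genes share the direction of their values there. The sequences are from RefSeq, 5′ to 3′ along the gene, with CCAAT boxes on either strand (CCAAT or ATTGG) in capitals.
Thrsp, chr7:97417551-97417800, minus strand: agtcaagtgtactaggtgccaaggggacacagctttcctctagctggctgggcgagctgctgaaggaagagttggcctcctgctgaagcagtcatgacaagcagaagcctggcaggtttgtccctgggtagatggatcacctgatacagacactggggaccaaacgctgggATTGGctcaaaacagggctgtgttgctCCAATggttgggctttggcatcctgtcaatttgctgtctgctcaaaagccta
Elovl6, chr3:129532136-129532385, plus strand: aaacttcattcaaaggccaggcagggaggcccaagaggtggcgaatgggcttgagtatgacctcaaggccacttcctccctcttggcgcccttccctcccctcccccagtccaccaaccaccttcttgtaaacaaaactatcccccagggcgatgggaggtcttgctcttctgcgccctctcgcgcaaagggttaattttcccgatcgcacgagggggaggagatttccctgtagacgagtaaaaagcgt
Fasn, chr11:120824548-120824797, minus strand: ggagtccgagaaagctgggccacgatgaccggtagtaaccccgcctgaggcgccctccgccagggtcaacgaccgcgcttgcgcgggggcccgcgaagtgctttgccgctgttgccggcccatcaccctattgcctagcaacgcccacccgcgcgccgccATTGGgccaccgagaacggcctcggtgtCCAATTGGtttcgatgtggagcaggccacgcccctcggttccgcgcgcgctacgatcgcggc
The Thrsp window held CCAAT boxes whose first bases lie at -79 and -52 from the start site, the Fasn window held them at -90, -62 and -59, the last pair overlapping, and the Elovl6 window held none. The start site used for Fasn lies inside the annotated gene, which spans 120805958 to 120825166. Of 13 such windows found for 9 members, 7 windows of 6 genes held a CCAAT box, against 33.85% of all 32851 windows of that length. The GC box GGGCGG, searched on both strands, was in 6 windows of 5 member genes, against 32.74% of all windows. The E-box CACGTG was in 0 of the 13 windows (6.02% of all), and the sterol regulatory element TCACNCCAC in 0 (1.05% of all), both searched on both strands. These matches describe the letters of the windows and nothing more.

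Values are intensities on a linear scale, and fold changes are log2 differences of intensity plus 1, 2BE minus vehicle, with limma's standard error (SE).
The threshold for a called change was an adjusted p of 0.05, after Benjamini-Hochberg adjustment over all 18193 genes.
The medians of the arrays fell into 5 separate ranges by tissue and time (41.2 to 42.4 in liver at 4 h and 50.0 to 52.2 at 7 d, against 109 to 112 in spleen at 7 d). Levels of the members were therefore set against each other only within a tissue and time. The hepatocyte marker sums below are also set across tissues, despite these ranges.
In liver, 56.8% of the probe sets at 4 h and 55.9% at 7 d had a value that at least 2 arrays shared exactly, against 2.2% to 3.2% in the other tissues and times.
The summed hepatocyte markers (7 measured) lay at 169950 to 182350 in 2BE livers and 157590 to 165750 in vehicle livers at 4 h, and at 150810 to 159870 and 146200 to 153320 at 7 d, against 315 to 675 in any spleen or marrow array.

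At 4 h, Thrsp was 6.22-fold higher in 2BE livers than in vehicle livers, and it was the only one of the 10 genes that passed the test.
No member fell.
Over all genes 4.51% were called, 3.24% as higher and 1.27% as lower.
The median log2 fold change of the 10 genes was 0.17, against -0.017 over all genes, and 6 of the 10 values were positive.

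Among the regulators, Thrsp had intensities of 2424, 6440.3, 3933 and 10729 in the 4 2BE livers, against 628, 1376 and 624 in the 3 vehicle livers.
Every 2BE liver lay above every vehicle liver, as was the case in that direction for 6.60% of all genes.
The log2 fold change was 2.64 ± 0.43 (SE, 95% confidence interval 1.73 to 3.54, limma adjusted p = 0.00234).
The 2BE livers themselves spread over a wide range, with an SD of 0.92 on the log2 scale, against 0.66 in the vehicle livers.
This call used a spread shared by the 4 liver groups, and in a limma fit on the 4 h arrays alone Thrsp had an adjusted p of 0.0638 and 176 genes were called in place of 821.
With the replicate number as a block, as if same-numbered arrays were pairs, 2BE replicate 4 had no partner and so no weight. In that limma fit 471 genes were called and Thrsp had an adjusted p of 0.00756 at a log2 fold change of 2.28.
Without 2BE replicate 4 and with no block, the fold change was the same, 466 genes were called and the adjusted p was 0.00668.
A second Thrsp probe set gave 2.67 ± 0.44 (adjusted p = 0.00287 over all probe sets with 1 symbol), whereas the third, with a mean log2 intensity of 6.70, gave -0.04 ± 0.08.

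Srebf1, the gene of the transcription factor that drives lipogenic enzymes, stood at 825, 537, 644 and 702 in 2BE livers and at 767, 932 and 889.8 in vehicle livers.
These ranges overlapped, and its log2 fold change of -0.36 ± 0.21 (-0.82 to 0.09) did not pass (limma adjusted p = 0.419).
Its sign was opposite to that of Thrsp.

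The enzymes of the pathway overlapped between arms at 4 h.
Acly, which supplies acetyl-CoA, had intensities of 1517, 1629.5, 1517 and 2578 in 2BE livers and 1209, 1517 and 1481 in vehicle livers (log2 fold change 0.34 ± 0.25).
Acaca stood at 382 in 3 of the 4 2BE livers and at 550.4 in the other, against 345, 453 and 382 in vehicle livers (0.10 ± 0.19).
Both genes thus owed the upper end of their 2BE range to replicate 4, and several of their values were identical across arrays.
Fasn ran from 803 to 1135 in 2BE livers and from 656 to 960.2 in vehicle livers (0.32 ± 0.31).
Elovl6, which elongates palmitate, was at 516, 583, 361 and 516 in 2BE livers, against 305, 521 and 305 in vehicle livers (0.41 ± 0.26).
One vehicle liver therefore lay within the upper part of the 2BE range.
Scd1, Me1, Gpam and Pnpla3 had log2 fold changes between -0.19 and 0.24.
Limma adjusted p-values of the 9 genes other than Thrsp ran from 0.419 to 0.943. Confidence intervals as wide as -0.35 to 0.98 (Fasn) and -0.38 to 0.85 (Me1) leave moderate differences undetected at 3 against 4 arrays.
Pnpla3 had intensities of 30.5 to 43.8 in 2BE livers and 34.2 to 42.5 in vehicle livers, close to the median of all probe sets in that liver set (41.9), so its signal was low.

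**Figure D1:**
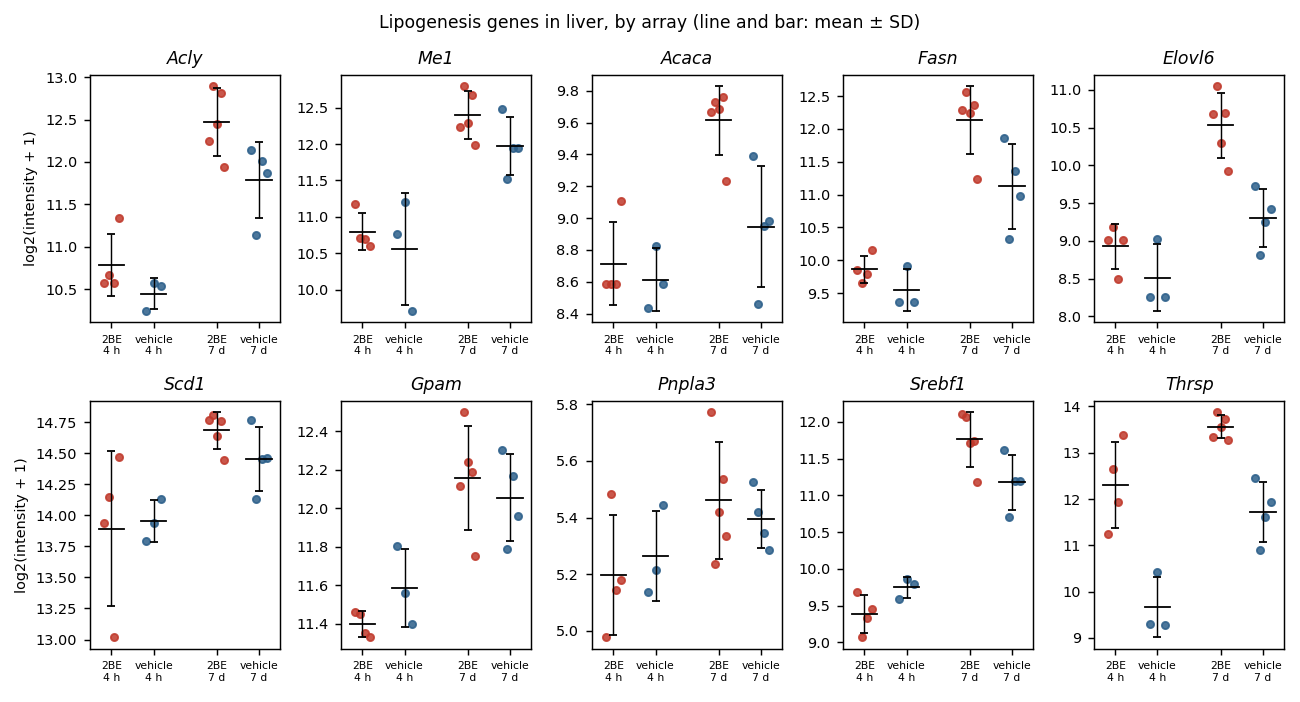
Intensity of the 10 genes in each liver array on the log2(intensity + 1) scale, with 2BE in red and vehicle in blue at 4 h and 7 d, and the mean and SD of each group in black. Only Thrsp separates the arms at 4 h, Thrsp and Elovl6 separate them at 7 d, and levels are to be read within 1 time only.

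Of the wider lipid lists, none of 17 genes of fatty acid synthesis and desaturation and none of 5 of NADPH and pyruvate supply were called at 4 h, and at an unadjusted p under 0.05 there was 1 of the 22, which was lower (17.7% of all genes passed that threshold in either direction).
Of 14 genes of triglyceride assembly and export, 1 rose, Lpin1, a phosphatidate phosphatase, by 2.10 ± 0.37 on the log2 scale (limma adjusted p = 0.00404).
Of 16 genes of lipid droplets and lipolysis, 2 rose, the droplet coat genes Plin4 (2.59 ± 0.46, adjusted p = 0.00398) and Plin5 (1.08 ± 0.21, adjusted p = 0.00709).
Of 17 lipogenic regulators, 3 rose.
They were Ddit4, a stress-induced inhibitor of mTORC1 (2.70 ± 0.60, adjusted p = 0.0161), Mbtps2, a protease that releases SREBPs (0.37 ± 0.08, adjusted p = 0.0195), and Mlx, the binding partner of ChREBP (0.39 ± 0.09, adjusted p = 0.0203).
No gene of these 5 lists fell, and the list medians lay between -0.02 and 0.13.
The hepatocyte markers Tat (1.60 ± 0.19, adjusted p = 0.000285) and Ass1 (1.34 ± 0.25, adjusted p = 0.00607) were also higher in 2BE livers, whose summed hepatocyte markers did not overlap with those of vehicle livers at this time.
The other 5 of the 7 measured hepatocyte markers were not called and the median over the 7 was 0.04, and the part of this in the members' values was not tested.
Of 5 fat cell markers measured, Fabp4 was called at 1.49 ± 0.19 (adjusted p = 0.000523).
Adipoq, the defining fat cell marker, was at 12.2 to 15.0 in 2BE livers and 13.9 to 16.6 in vehicle livers, below the lower quartile of that liver set (17.3).

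At 7 d, Thrsp and Elovl6 were higher in 2BE livers than in vehicle livers, by 3.58-fold and 2.34-fold, and passed the test.
All 10 genes had positive log2 fold changes, with a median of 0.63, against -0.0013 over all genes.
Over all genes 0.748% were called, 0.506% as higher and 0.242% as lower.
At an unadjusted p under 0.05, 6 of the 10 genes were higher, against 6.09% of all genes.
As these are bulk tissues, a change in the share of a cell type and a change in RNA per cell cannot be told apart.

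Thrsp stood at 10411, 15048, 12076, 13568 and 9949.6 in the 5 2BE livers, against 5610.1, 1897, 3113 and 3903 in the 4 vehicle livers.
All 2BE livers lay above all vehicle livers, which held in that direction for 3.05% of all genes.
The log2 fold change was 1.84 ± 0.37 (95% confidence interval 1.05 to 2.63, limma adjusted p = 0.0291).
The SD of the 2BE livers was 0.25 on the log2 scale, against 0.65 in the vehicle livers.
The second probe set gave 2.14 ± 0.38 (adjusted p = 0.0162) and the third 0.09 ± 0.07.
This call was lost when 2BE replicate 2, 3, 4 or 5 or vehicle replicate 2, 3 or 4 was left out (adjusted p from 0.0529 to 0.119, log2 fold changes from 1.56 to 1.91).
It was also lost with a trended and robust limma fit (adjusted p = 0.0787).

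Srebf1 had intensities of 4407, 4278, 3354, 3428 and 2313 in 2BE livers and 3151, 1664, 2341 and 2345 in vehicle livers.
The lowest 2BE liver lay inside the vehicle range, and the log2 fold change of 0.58 ± 0.19 did not pass (limma adjusted p = 0.194).

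Elovl6 had intensities of 1635, 2125, 1257, 1650.1 and 973 in 2BE livers, against 847, 450.4, 605 and 683 in vehicle livers.
The arms did not overlap.
Its log2 fold change was 1.23 ± 0.23 (95% confidence interval 0.74 to 1.71, limma adjusted p = 0.0199).
A second probe set rose by 1.04 ± 0.20 (adjusted p = 0.0268), and the third, a weaker one, gave 0.43 ± 0.17 (adjusted p = 0.333).
The Elovl6 call was lost without 2BE replicate 4 (adjusted p = 0.0583), vehicle replicate 2 (0.0757) or vehicle replicate 3 (0.0789).
Scd1, the desaturase that acts after Elovl6, was at 27917, 28578, 25504, 27708 and 22275 in 2BE livers and at 27896, 17948, 22456 and 22514 in vehicle livers.
Its log2 fold change was 0.23 ± 0.21 and did not pass (adjusted p = 0.771).
The second Scd1 probe set gave 0.67 ± 0.44.

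For Fasn, Acaca and Acly, 4 of the 5 2BE livers lay above every vehicle liver, and for Me1 2 of the 5 did.
Fasn had intensities of 5005, 6078, 4839.7, 5259 and 2424 in 2BE livers and 3708, 1282, 2634 and 2011 in vehicle livers.
The first 4 2BE livers exceeded every vehicle liver and replicate 5 lay inside the vehicle range.
Its log2 fold change was 1.01 ± 0.28 (0.43 to 1.59), a 2.02-fold difference that did not pass (limma adjusted p = 0.108).
Without 2BE replicate 5 it was 1.24 and passed (adjusted p = 0.037).
Acaca was at 810.5, 847, 823, 866 and 600.2 in 2BE livers and 671, 351, 494 and 505 in vehicle livers, a log2 fold change of 0.67 ± 0.16 (adjusted p = 0.0751).
It passed without vehicle replicate 1 (0.82, adjusted p = 0.0343).
Acly was at 4864, 7636, 5588, 7202 and 3917 in 2BE livers and at 4505, 2259.9, 4123 and 3727 in vehicle livers (0.68 ± 0.22, adjusted p = 0.196).
Its next 2 brightest probe sets gave 0.63 and 0.84.
Me1 ran from 4068 to 7139.5 in 2BE livers and from 2935 to 5732 in vehicle livers (0.42 ± 0.26).
The arms of both genes overlapped, and neither Acly nor Me1 was called in any of the alternatives tried.

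The glycerolipid genes differed least between the arms.
Gpam ran from 3452 to 5786 in 2BE livers and from 3538 to 5051 in vehicle livers, with a log2 fold change of 0.10 ± 0.13 (-0.17 to 0.38).
Pnpla3 ran from 36.7 to 53.7 in 2BE livers and from 38.0 to 45.0 in vehicle livers (0.07 ± 0.11), again near the median of all probe sets of that set (51.0).

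Within each arm at 7 d, the same array stood highest, and the same array lowest, for most members.
Vehicle replicate 1 had the highest value of its group for all 10 genes, and vehicle replicate 2 the lowest for 9.
2BE replicate 5 was the lowest of its group for 9 genes and 2BE replicate 2 the highest for 7.
With all arrays, 2 members lay above the vehicle range without overlap, against 3.05% of all genes.
Without 2BE replicate 5 there were 6, namely Acaca, Acly, Elovl6, Fasn, Srebf1 and Thrsp, and without vehicle replicate 1 there were 4, namely Acaca, Elovl6, Me1 and Thrsp. The count stayed at 2 when any other single array was left out. Leaving out an array can only keep or raise this count, and the share over all genes was not computed for these omissions.
The number called by limma was 3 without vehicle replicate 1, where 95 of 18193 genes were called. It was 0 without 2BE replicate 4, vehicle replicate 2 or vehicle replicate 3, where 58, 36 and 46 of all genes were called.
It was 1 without 2BE replicate 2 or 3 or vehicle replicate 4, where 76, 135 and 75 of all genes were called.

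**Figure D2:**
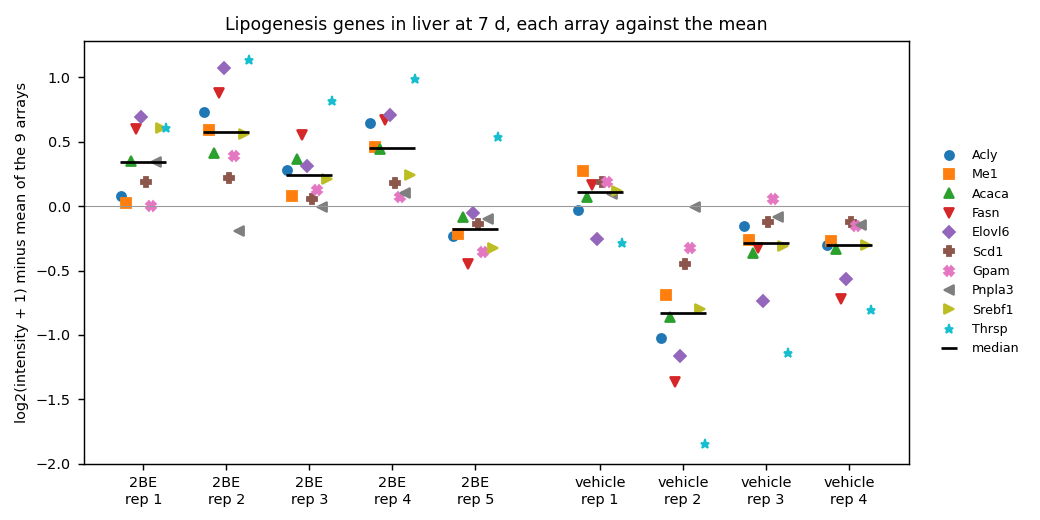
Deviation of each of the 10 genes from its mean over the 9 liver arrays of 7 d, on the log2(intensity + 1) scale, for 5 2BE arrays on the left and 4 vehicle arrays on the right; symbols are genes and black bars are array medians. 2BE replicate 5 sits lowest of its group for 9 genes, vehicle replicate 1 highest of its group for all 10, and vehicle replicate 2 lowest for 9.

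Over the 16 liver arrays, after each gene's mean of its time was removed, Fasn tracked the mean of the other 9 members most closely (Pearson r = 0.96), followed by Acaca (0.94), Elovl6 (0.90) and Acly (0.87).
Srebf1 (0.73), Me1 (0.61), Thrsp (0.60), Scd1 (0.57) and Gpam (0.50) tracked it less closely, and Pnpla3 hardly (0.10).
With each arm's mean removed as well, r was 0.93 for Fasn, 0.91 for Acaca and 0.67 for Thrsp, so the covariation was present between arrays of 1 arm.
Outside the list, the genes most like the members' mean were Gbe1 (0.90), Pstpip2 (0.90), Acacb (0.88), Usp49 (0.87) and Prss8 (0.87).
Acacb encodes the mitochondrial acetyl-CoA carboxylase and Gbe1 the glycogen branching enzyme.
None of these 5 genes was called in liver at either time.
These correlations describe arrays that share their normalization, and no test was applied.

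In the wider lists at 7 d, 1 of 17 genes of fatty acid synthesis and desaturation rose, Scd2, a desaturase related to Scd1 (0.48 ± 0.09, limma adjusted p = 0.0228).
None was called among 5 genes of NADPH and pyruvate supply, 14 of triglyceride assembly and export, 16 of lipid droplets and lipolysis and 17 regulators.
At an unadjusted p under 0.05, 9 of these 52 genes were higher and 4 lower, where 11.4% of all genes passed in either direction.
The medians of these 5 lists lay between -0.03 and 0.13, below the 0.63 of the 10 members.
Lpin1 had a log2 fold change of 0.79 ± 0.33 (adjusted p = 0.355), Plin4 of 1.42 ± 0.40 (0.121) and Ddit4 of 0.50 ± 0.53 (0.807) at this time.
The summed markers of Kupffer cells and macrophages (7 measured) lay at 4345 to 6093 in 2BE livers and 3158 to 3775 in vehicle livers without overlap, and 2 of them were called, Marco (2.19 ± 0.43) and Cd68 (0.80 ± 0.17).
The hepatocyte marker Tat (0.89 ± 0.16, limma adjusted p = 0.0176, 1 of 7 measured) and the erythroid marker Slc4a1 (0.56 ± 0.12, adjusted p = 0.0453, 1 of 5 measured) were called as well, while the summed markers of both lists overlapped between the arms.
The part of these cells in the lipogenic values was not tested.
Fabp4 had a log2 fold change of 0.33 and was not called, and Adipoq was at 11.6 to 13.5 in 2BE livers and 12.3 to 13.6 in vehicle livers, under the lower quartile (20.3).

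The 2BE response at 7 d was then set against that at 4 h within the liver fit.
None of the 10 genes differed at an adjusted p under 0.05, and 0.269% of all genes did.
The difference was positive for 9 genes, and 3 of them had an unadjusted p under 0.05, against 4.46% of all genes in that direction.
These were Srebf1 (0.94 ± 0.29 on the log2 scale, adjusted p = 0.234), Elovl6 (0.81 ± 0.35, adjusted p = 0.473) and Acaca (0.57 ± 0.25, adjusted p = 0.488).
For Thrsp the difference was -0.80 ± 0.57, with a 95% confidence interval that includes 0 and ends at 0.40.
The higher Elovl6 call at 7 d and its absence at 4 h are therefore not shown to differ.

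In spleen at 4 h none of the 10 genes was called by limma on its main probe set, against 5.16% of all genes. Their log2 fold changes lay between -0.17 and 0.67.
At an unadjusted p under 0.05 there was 1, Srebf1, which was lower in 2BE spleens, against 9.99% of all genes in that direction.
Srebf1 had intensities of 586, 548, 589 and 528 in 2BE spleens, against 695, 623, 625 and 593 in vehicle spleens.
The arms did not overlap, as for 6.95% of all genes in that direction, but the log2 fold change of -0.17 ± 0.07 did not pass (adjusted p = 0.161). A second Acly probe set was called as higher in 2BE spleens (0.35 ± 0.08, limma adjusted p = 0.0201), whereas the main one gave 0.06.
Thrsp was at 41.4, 57.1, 244 and 59.3 in 2BE spleens and 49.1, 44.7, 32.9 and 71.8 in vehicle spleens.
The high value belonged to 2BE replicate 3, which was the highest of its group for 7 of the 10 genes.
Summed fat cell markers (5 measured) were 1042, 1269, 15749 and 2095 in the same 2BE spleens and 349, 385, 412 and 1220.4 in vehicle spleens, highest in that array.
The part of fat tissue in these values was not tested.
Among the wider lists, the regulators Ddit4 (1.71 ± 0.39, adjusted p = 0.0117) and Insig1, which holds SREBPs in the endoplasmic reticulum (0.78 ± 0.13, adjusted p = 0.000693), and the lipase Mgll (0.67 ± 0.15, adjusted p = 0.0134) rose.
The liver response at 4 h minus the spleen response was called for none of the 10 genes (1.78% of all genes).
At an unadjusted p under 0.05 it was higher for 1 gene, Thrsp, at 1.96 ± 0.77 (adjusted p = 0.273), against 7.40% of all genes in that direction.

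In spleen at 7 d the direction of most members was opposite to that in liver.
Of the 10 genes 7 fell and 1 rose, on a background in which 64.4% of all genes were called, 32.0% as lower and 32.4% as higher.
The share called among the members is near that background.
Their median log2 fold change was -0.31, against 0.051 over all genes.

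Scd1 had intensities of 1729, 1318, 1726, 1424 and 2208 in 2BE spleens, against 4765, 8599.7, 3856, 4607 and 4767 in vehicle spleens (-1.63 ± 0.19 on the log2 scale, limma adjusted p = 9.47e-07).
Acly was at 1499, 1276, 1446, 1447 and 1717 in 2BE spleens and at 2650.0, 2555, 2307, 2535 and 2420.0 in vehicle spleens (-0.76 ± 0.07, adjusted p = 1.01e-07).
Neither gene's arms overlapped.
Fasn was at 501, 498, 476, 498 and 549.8 in 2BE spleens and at 647, 1294, 629, 795 and 757 in vehicle spleens (-0.66 ± 0.14, adjusted p = 0.000451).
Thrsp was at 38.1, 68.8, 53.5, 50.5 and 71.7 in 2BE spleens and at 72.3, 533, 105, 162 and 129 in vehicle spleens (-1.46 ± 0.46, adjusted p = 0.0101).
For both, vehicle replicate 2 stood far above the rest of its group. The main Thrsp probe set had a mean log2 intensity of 6.54, below the median of that spleen set (6.80). The second Thrsp probe set gave -0.34 ± 0.26 (limma adjusted p = 0.263) and the third 0.06 ± 0.10, so the Thrsp call rests on 1 probe set.
Elovl6 (-0.35 ± 0.09), Srebf1 (-0.28 ± 0.06) and Gpam (-0.19 ± 0.07) also fell.
The Gpam call was lost without 2BE replicate 1, 2 or 4 or vehicle replicate 2, 4 or 5 (adjusted p from 0.0628 to 0.0953).
Pnpla3 rose by 0.25 ± 0.08 (adjusted p = 0.013).
Me1 and Acaca were not called by their main probe sets. Of their second probe sets, that of Me1 fell (-0.52 ± 0.10, limma adjusted p = 0.000183) and that of Acaca rose (0.32 ± 0.10, adjusted p = 0.00959). The second Gpam probe set gave 0.18 ± 0.10 (adjusted p = 0.134), opposite in sign to the main one. Second probe sets of Scd1 (-0.92), Acly (-1.02) and Elovl6 (-0.35) fell as the main ones did.
Together 5 members, Acly, Fasn, Scd1, Srebf1 and Thrsp, lay below the vehicle range without overlap, against 26.7% of all genes.

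The vehicle spleens differed in fat cell markers.
The 5 measured markers summed to 439, 611, 442, 399 and 454 in 2BE spleens, against 425, 15872, 555, 6306 and 4783 in vehicle spleens.
Vehicle replicates 2, 4 and 5 thus lay above all 2BE spleens and vehicle replicates 1 and 3 lay within the 2BE range.
Adipoq was below the lower quartile of the spleen set (38.9) in every 2BE spleen (17.1 to 21.7) and reached 1869 in vehicle spleens.
Leaving out vehicle replicates 2, 4 and 5, a choice made after the data were seen, kept only vehicle replicates 1 and 3. Then 5 members were called, and over all genes 9545 of 18193 were. The share called among the members is near that of all genes.
Acly (-0.75), Scd1 (-1.37), Fasn (-0.34) and Srebf1 (-0.24) were lower in 2BE spleens and Pnpla3 (0.29) was higher.
Thrsp (-0.65, limma adjusted p = 0.273), Elovl6 (-0.25, adjusted p = 0.0708) and Gpam (-0.09, adjusted p = 0.459) were no longer called.
Summed erythroid markers were 42940 to 54151 in 2BE spleens and 6636 to 17037 in vehicle spleens, and B cell markers 5438 to 14342 in 2BE spleens and 27800 to 32394 in vehicle spleens.
The part of these shifts in the members' values was not tested.

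**Figure D3:**
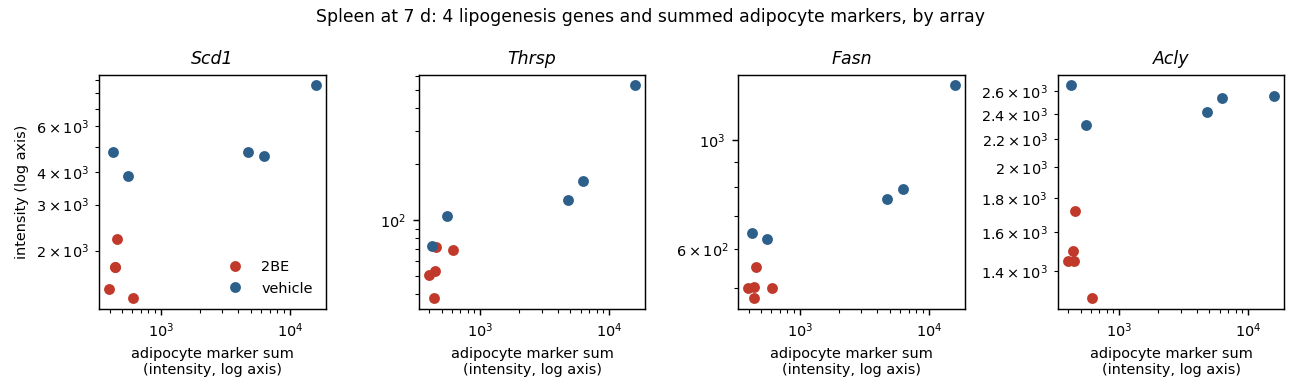
Intensity of Scd1, Thrsp, Fasn and Acly (vertical, log axis) against the sum of 5 fat cell markers (horizontal, log axis) in each spleen array of 7 d, 2BE in red and vehicle in blue. The 2BE spleens sit at sums of 399 to 611, and the vehicle spleens reach 15872. The vehicle arrays at 425 and 555 remain above every 2BE array for Scd1, Fasn and Acly, and narrowly for Thrsp (72.3 at 425, against at most 71.7 in 2BE spleens).

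Among the wider lists in spleen at 7 d, 8 of 17 genes of fatty acid synthesis and desaturation rose and 6 fell.
The largest changes were those of the desaturases Fads1 (1.05 ± 0.13) and Fads2 (0.95 ± 0.14), and of the elongation genes Elovl5 (-0.90 ± 0.09) and Hsd17b12 (-0.79 ± 0.09).
Of the regulators, 10 of 17 fell and 1 rose, among them Insig1 (-0.84 ± 0.11), Mbtps2 (-0.81 ± 0.10), Scap (-0.66 ± 0.09) and Nr1h3 (-0.52 ± 0.09).
In NADPH and pyruvate supply 3 of 5 rose and 2 fell, with the red cell and liver pyruvate kinase Pklr at 2.13 ± 0.20.
In triglyceride assembly 3 of 14 rose and 5 fell, and in lipid droplets and lipolysis 7 of 16 rose and 4 fell.
All of these stand beside the 64.4% called over all genes.

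In bone marrow at 7 d, 4 of the 10 genes fell in 2BE mice and 2 rose, where 20.1% of all genes were called (10.7% lower and 9.40% higher).
Gpam, the acyltransferase that opens triglyceride synthesis, had intensities of 606, 461, 511, 523 and 622 in 2BE marrow, against 947, 1039, 1192, 1081 and 961 in vehicle marrow.
It fell by 0.94 ± 0.09 on the log2 scale (limma adjusted p = 1.39e-05), where liver had shown 0.10.
Elovl6 was at 229.9, 216, 184, 206 and 252 in 2BE marrow and at 303, 365, 337, 349.5 and 356 in vehicle marrow (-0.66 ± 0.08, adjusted p = 7.67e-05).
Scd1 was at 553, 537, 411, 429 and 546 in 2BE marrow and at 793, 720.0, 699, 793 and 804 in vehicle marrow (-0.63 ± 0.09, adjusted p = 0.000221).
None of these 3 genes overlapped between arms.
Acly fell by 0.24 ± 0.06 (adjusted p = 0.00901), also without overlap. Second probe sets of Gpam (-0.45 ± 0.13, limma adjusted p = 0.0251) and Elovl6 (-0.58 ± 0.07, adjusted p = 0.000135) also fell. The second Scd1 probe set gave -0.18 ± 0.08 and was not called (adjusted p = 0.173). The next 2 brightest Acly probe sets gave -0.08 ± 0.09 (adjusted p = 0.608) and -0.24 ± 0.08 (adjusted p = 0.068). The Scd1 and Acly calls thus rest on 1 probe set each.
Pnpla3 rose by 0.24 ± 0.06 (adjusted p = 0.00802), with 124 to 136 in 2BE marrow and 101 to 122 in vehicle marrow.
Counting these, 4 members lay below and 1 above the vehicle range without overlap, against 8.45% and 7.55% of all genes.

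Thrsp rose in marrow by 0.53 ± 0.16 (limma adjusted p = 0.0338), from low signals of 69.5, 102, 79.9, 82.7 and 141 in 2BE marrow and 60.9, 49.9, 81.5, 60.4 and 67.6 in vehicle marrow.
The arms overlapped, and the call was lost without 2BE replicate 2 or 5 or without vehicle replicate 1, 2, 4 or 5 (adjusted p from 0.0515 to 0.0762). The second Thrsp probe set rose by 0.38 ± 0.09 (limma adjusted p = 0.0108), and the third gave 0.06 ± 0.06 (adjusted p = 0.583).
Srebf1 (-0.0043 ± 0.05), Acaca (0.03 ± 0.06), Fasn (-0.16 ± 0.06) and Me1 (-0.14 ± 0.06) did not pass.
Fat cell markers summed to 3783 to 6057 in 2BE marrow and 6580 to 7640 in vehicle marrow without overlap, and 2 of the 5 fell, Adipoq (-0.51 ± 0.10) and Car3 (-1.57 ± 0.25). Over the 5 markers, 3 log2 fold changes were negative and 2 positive (up to 0.13), with a median of -0.18.
Summed fibroblast markers lay at 6272 to 27168 in 2BE marrow and 30412 to 40974 in vehicle marrow, erythroid markers at 37897 to 42689 in 2BE marrow and 28897 to 36827 in vehicle marrow, and B cell markers at 1778 to 3073 in 2BE marrow and 6286 to 8006 in vehicle marrow.
The part of these shifts in the members' values was not tested.
In the wider lists, beside the 20.1% called over all genes, 3 of 17 genes of fatty acid synthesis and desaturation rose, Acss2, Fads1 and Fads2 (0.24 to 0.31), and none fell.
Of 14 genes of triglyceride assembly and export 2 rose and 1 fell, the acyltransferase Gpat3 (-0.83 ± 0.10).
In lipid droplets and lipolysis 2 of 16 rose and 1 fell, in NADPH and pyruvate supply 1 of 5 rose and 1 fell, and of the 17 regulators 1 rose and 1 fell.

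The difference between tissues was tested directly at 7 d, as the liver response minus the response of the other tissue.
The labels do not say whether tissues came from the same mice, and the fit treated all arrays as independent. It also used a spread shared by all tissues. For Srebf1 the SD was 0.37 in 2BE and 0.38 in vehicle livers, against 0.08 and 0.06 in marrow. Its SE for liver minus marrow (0.183) was thus smaller than that of the liver response alone (0.189), so calls of these contrasts can understate the liver spread.
Against spleen, 8 of the 10 genes had a higher response in liver, where 57.0% of all genes differed and 29.6% were higher in liver.
The differences ran from 0.62 ± 0.23 for Me1 to 3.30 ± 0.48 for Thrsp, with Scd1 at 1.85 ± 0.22, Fasn at 1.67 ± 0.31 and Elovl6 at 1.58 ± 0.22. Only main probe sets were used here, and the second Thrsp probe set fell less in spleen (-0.34, against -1.46 for the main one).
Gpam and Pnpla3 were not called.
Without the 3 vehicle spleens that were high in fat cell markers, 7 were called and Me1 was not (limma adjusted p = 0.184), and Me1 was also lost without vehicle liver replicate 2 (adjusted p = 0.0748).
Against bone marrow, 7 of the 10 genes had a higher response in liver, where 9.61% of all genes differed and 5.60% were higher in liver.
Elovl6 had the largest of these (1.88 ± 0.22, adjusted p = 2.87e-06), followed by Fasn (1.17 ± 0.31), Gpam (1.05 ± 0.16), Acly (0.93 ± 0.21), Scd1 (0.86 ± 0.22), Acaca (0.63 ± 0.18) and Srebf1 (0.59 ± 0.18).
The Srebf1 call was lost without 2BE liver replicate 1, 2 or 4, vehicle liver replicate 2, 3 or 4, 2BE marrow replicate 3, 4 or 5, or vehicle marrow replicate 1, 2, 4 or 5 (adjusted p from 0.0515 to 0.124), and the Acaca call without vehicle liver replicate 2 (0.0768).
Thrsp (1.31 ± 0.48, adjusted p = 0.0816), Me1 (0.57 ± 0.23, adjusted p = 0.119) and Pnpla3 (-0.17 ± 0.13) did not pass.
The 2 contrasts share the liver arrays.

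**Figure D4:**
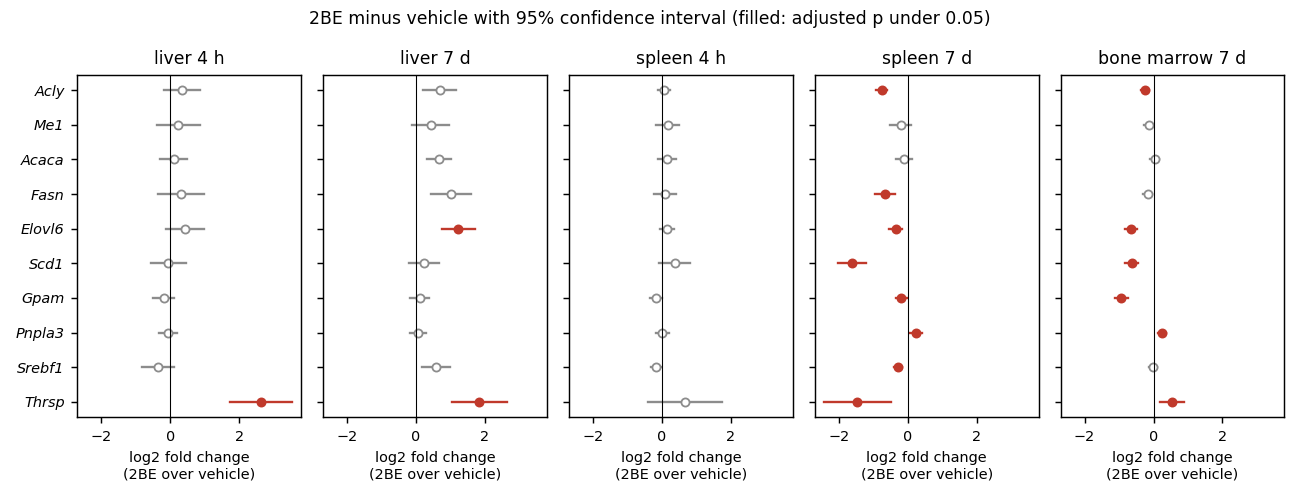
Log2 fold change (2BE over vehicle) of the 10 genes in each tissue and time with 95% confidence intervals; filled red points passed the test and open grey points did not. Thrsp stands at 2.64 in liver at 4 h, all 10 genes lie right of 0 in liver at 7 d, and Scd1, Thrsp, Acly and Fasn lie left of 0 in spleen at 7 d.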

How the data were processed

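Expression was measured on 44 arrays. The values are intensities per probe set, deposited by the authors in 1 table on a linear scale from 6.16 to 47797.8. They were made with RMA per the submitters' processing notes, for which no version is given in these sources. Per the labels, liver and spleen RNA came from mini columns, marrow RNA from a marrow kit, and labelling was one-cycle. Of 45101 probe sets, 64 controls were left out, 932 carried several symbols and 9160 none in the platform annotation. Gene positions and promoter sequences are RefSeq's (GRCm38.p6).

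Deposited intensities were analysed as log2(intensity + 1), which understates the change of low genes. The linear models of limma 3.58.1 (R 4.3.3) took group means over 4 liver, 4 spleen or 2 marrow groups, and tissue differences came from all arrays of the same time. The script was tested on simulated data. The number of arrays limits the precision. Arrays of a group correlated at 0.98252 or more.

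Same-numbered 2BE and vehicle arrays of liver at 4 h had deviations from the group means that correlated at 0.132 to 0.282. Differently numbered arrays there correlated at -0.301 to 0.370, so these values do not show that the numbers pair arrays. Elsewhere some same-numbered pairs lay under 0.1. The replicate block is therefore given as an alternative only. Named genes were all 10 members, up to 4 genes of each wider list with the largest change among those called, marker genes, and the 5 genes most like the members. The members, lists and tests were chosen with earlier results of these data known. Alternatives were other limma options, pseudocounts, a low-value filter, quantile normalization, array weights, the mean of probe sets, a replicate block, fits on 1 time, and leaving out each array.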

Additional observations from a re-analysis of the deposited data

Results flagged for a closer look

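Of 90 groups of 4 to 10 arrays tested for an array far from its group, 6 had one, and chance alone gives about 1 in 20. Acaca was at 550.4 in liver 2BE replicate 4 at 4 h, with the other 3 arrays at 382. These 3 values were identical, so any other value in replicate 4 would have been flagged, and the 1 in 20 does not apply there. Acly was at 2578 in the same array, with the others at 1517 to 1629.5. At 7 d, liver 2BE replicate 5 stood apart for Acaca (600.2, against 810.5 to 866 in the other 2BE livers) and for Fasn (2424, against 4839.7 to 6078). Pnpla3 was at 124 in bone marrow 2BE replicate 4, with the others at 133 to 136. Scd1 was at 8599.7 in spleen vehicle replicate 2 at 7 d, with the others at 3856 to 4767, and that array also had the highest sum of fat cell markers.

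The response to 2BE at 7 d differed between liver and spleen for 8 genes, by log2 differences of 3.30 (Thrsp), 1.85 (Scd1), 1.67 (Fasn), 1.58 (Elovl6), 1.44 (Acly), 0.86 (Srebf1), 0.78 (Acaca) and 0.62 (Me1), where 57.0% of all genes differed. It differed between liver and bone marrow for 7 genes, by 1.88 (Elovl6), 1.17 (Fasn), 1.05 (Gpam), 0.93 (Acly), 0.86 (Scd1), 0.63 (Acaca) and 0.59 (Srebf1), where 9.61% of all genes differed. Both were tested as limma contrasts over the arrays of 7 d, on the main probe sets and with a spread shared by all tissues.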

How the results depend on the processing

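The number of members called stayed within 1.5 times its main value in 180 alternative settings and moved further in 11. Of these 11, 8 were in liver at 7 d, where it stayed in 10. The 180 include settings with 0 called against 0, namely 24 for the difference of times in liver, 23 for liver minus spleen at 4 h and 16 for spleen at 4 h. In liver at 4 h it was 0, in place of 1, in the fit on the 4 h arrays alone. In liver at 7 d it was 1 with a trended and robust fit and 5 with array weights (Acaca, Fasn and Srebf1 added), and it ran from 0 to 3 when single arrays were left out, against 2 with all arrays. In spleen at 4 h it was 1 with the mean of all probe sets, against 0. In spleen at 7 d it was 5 without the 3 vehicle arrays high in fat cell markers, a setting chosen after seeing the data, against 8. Over all genes 9545 of 18193 were called in that setting, against 11712. In liver the block also removes the 2BE array with no vehicle partner, replicate 4 at 4 h and replicate 5 at 7 d, so its fold changes equal those without that array. With the replicate block, 3 members were called in liver at 7 d, with Acaca at a limma adjusted p of 0.0443. Acaca was not called without replicate 5 and with no block. Gpam was not called in spleen at 7 d with the block (0.0548). The numbers were not taken to pair the arrays in any tissue. In spleen at 7 d, Gpam (-0.19) was also lost with quantile normalization (-0.08), with the mean of probe sets (-0.01) and without any of 6 arrays. In marrow, the mean of probe sets took Acly to -0.11 (adjusted p = 0.105), and Thrsp was lost with a trended and robust fit (0.0576) and with array weights (0.0521). Between tissues, Me1 of liver minus spleen was lost with quantile normalization (0.061) and Acaca of liver minus marrow with the mean of probe sets (0.0718). Signs turned for uncalled values of liver at 4 h. Acaca was -0.041 with the mean of probe sets and -0.031 with the block, the value without 2BE replicate 4. When single arrays were left out, Acaca ran from -0.031 to 0.21, Pnpla3 from -0.16 to 0.021, Scd1 from -0.25 to 0.23 and Me1 from -0.19 to 0.56 at 4 h, and Pnpla3 from -0.012 to 0.12 at 7 d. The cause of these changes was not tested. Over all genes, calls in liver at 4 h numbered 821, against 466 to 1090 without single arrays, and 590 of 821 were higher, against 487 of 843 after quantile normalization. At 7 d they numbered 136, against 406 with array weights, 244 in the fit on the 7 d arrays alone and 36 to 250 without single arrays. In spleen at 4 h they numbered 938 (602 higher), against 508 in the fit on that time alone and 1168 (613 higher) after quantile normalization. For the difference of times they numbered 49 (18 higher), against 86 with array weights, 47 (23 higher) after quantile normalization and 4 to 111 without single arrays. For liver minus marrow they numbered 1748, against 3079 with array weights, and for liver minus spleen at 4 h 323, against 214 without vehicle liver replicate 1.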
